A study of Mus musculus with 20 samples.

Results

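The genes of cholesterol synthesis, sterol sensing, uptake and export were followed in mouse liver after a CRISPR guide against HIRA. The set held 32 genes taken by symbol from the count table, which lists 55421 genes, and all 32 were among the 22867 genes tested. It comprised 18 enzymes on the way from acetyl-CoA to cholesterol, 5 genes of sterol sensing, 3 sterol exporters, and 6 genes of uptake, esterification and transport inside the cell. The study injected wildtype C57BL/6 mice, labelled female, at 6 months of age with an AAV8 vector that carries saCas9 under the Tbg promoter and a U6-driven single guide RNA. The guide targeted Rosa26, a locus used as a neutral control, or HIRA, a chaperone for histone H3.3 that acts outside DNA replication. Livers were harvested 3 weeks or 6 months later, giving 4 groups of 5 libraries (Rosa26 at 3 weeks, HIRA at 3 weeks, Rosa26 at 6 months and HIRA at 6 months). All 20 mice, controls included, received the virus and Cas9, and Tbg drives Cas9 in hepatocytes, so other liver cells were not meant to be edited. Editing in each cell type was not measured in these data. The question put to these data was whether the hepatocyte's sterol genes differed between guides, between times, or among mice of a group.

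Cholesterol is built from acetyl-CoA through mevalonate, isoprenoids, squalene and lanosterol, and the liver is a main site of this synthesis. The transcription factor SREBP2 (Srebf2) switches the enzymes on when sterols are low. Its escort SCAP carries it out of the endoplasmic reticulum, and INSIG1 and INSIG2 hold SCAP back when sterols are plentiful.

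The libraries held 19916430 to 24079736 counts, and the 32 genes together took 0.436% to 0.785% of them. Hira itself had 4.15 to 5.95 CPM (counts scaled to a common library size, with TMM factors) in the HIRA libraries at 3 weeks, all below the 6.04 to 8.54 CPM of the Rosa26 libraries, with a log2 fold change of -0.48 ± 0.14 (SE, adjusted p = 0.197). At 6 months the ranges overlapped, with 4.96 to 6.51 CPM under HIRA and 4.82 to 7.32 CPM under Rosa26 (log2 fold change -0.10 ± 0.14, adjusted p = 0.794). The level of Hira RNA thus separated the labels at 3 weeks and did not at 6 months. The paper reports by western blot that HIRA protein was lost under this guide, and these data hold RNA only. Library 5 of the HIRA 6-month group stood apart, with 2041 counts over 4 Y-linked genes and 9 Xist counts, against at most 13 Y-linked counts in the other 19 libraries, although it is labelled female. The study's text and figure legend differ on the sex of the mice in this time course. Clock genes also differed between the arms. The mean of 9 evening-phase genes minus that of 5 morning-phase genes, in centred log2 CPM, was -1.96 ± 0.365 (SD, n = 5) in Rosa26 at 3 weeks, 0.767 ± 1.28 in HIRA at 3 weeks, 0.405 ± 0.919 in Rosa26 at 6 months and 0.783 ± 1.64 in HIRA at 6 months. The hour of harvest was not given in the sources used here, and its part in the differences below was not tested. The 7 hepatocyte markers summed to between 97952 and 173563 CPM, and those of cholangiocytes, stellate, Kupffer, endothelial and lymphoid cells to far less, with no listed marker at 0 throughout. Kupffer and macrophage markers spread most, from 285 to 2005 CPM in Rosa26 and from 193 to 1263 CPM in HIRA at 6 months. The lowest of HIRA at 6 months was library 5. It was also lowest of its group in cholangiocyte (46.8 CPM), stellate (210 CPM), endothelial (125 CPM) and lymphoid sums (10.1 CPM). In whole liver, fewer cells of a type and less RNA per cell cannot be told apart.

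Promoter sequences of the sterol genes were searched for short motifs. RefSeq windows of 300 bases (GRCm38.p6, 250 before and 50 after each start) were found for 25 of the 32 genes, in 32 windows, and were searched on both strands. Not matched were Fdft1, Fdps, Npc1, Scarb1, Soat2, Sqle and Stard4. CCAAT, the letters bound by NF-Y, lay in 77.8% of the 18 synthesis windows and 57.1% of the 14 other windows of the set, against 37.4% of 32851 windows of all genes. The GC box GGGCGG lay in 83.3% and 64.3%, against 35.7% of all windows. CACGTG, the E-box, lay in 16.7% and 28.6%, against 7.15%. The sterol regulatory element letters CACNCCAC were rarer, in 3 of 32 windows (9.38%, against 6.24% of all), and the longer form TCACNCCAC, which contains them, in 1 (3.12%, against 1.24%). These are matches of letters and no measure of binding. The windows of all genes were taken whether or not the gene is expressed in liver. The 4 matches of CACNCCAC follow for Hmgcs1, Acat2 and Insig1, with the match in capitals, reading 5′ to 3′ along each gene (in Insig1 and in the second Acat2 stretch the match is on the opposite strand):
Hmgcs1 chr13:119690204-119690233 (+): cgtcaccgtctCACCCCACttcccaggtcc
Acat2 chr17:12960888-12960917 (-): tggatcctccaCACCCCACcctaacccgac
Acat2 chr17:12960760-12960789 (-): cgtgaggaggcGTGGCGTGgaggccatagc
Insig1 chr5:28071392-28071421 (+): cgtgtagtgtcGTGGCGTGtaccttccatg

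The 150 bases before the start are shown for Hmgcs1 and Mvd, whose transcripts moved closely with the other enzymes, for Sc5d, which differed most with time among the enzymes of the Rosa26 mice by p, and for Insig2, which ran opposite to the enzymes. Capitals mark the letters of the sterol regulatory element, the NF-Y box, the GC box and the E-box on either strand. For Insig2 the stretch belongs to the most upstream of 3 RefSeq starts and held 3 CCAAT matches and no GC box.
Hmgcs1 chr13:119690201-119690350 (+): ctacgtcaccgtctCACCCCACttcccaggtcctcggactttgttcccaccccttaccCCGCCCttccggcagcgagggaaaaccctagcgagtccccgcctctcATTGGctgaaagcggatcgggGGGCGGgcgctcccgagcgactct
Mvd chr8:122443423-122443572 (-): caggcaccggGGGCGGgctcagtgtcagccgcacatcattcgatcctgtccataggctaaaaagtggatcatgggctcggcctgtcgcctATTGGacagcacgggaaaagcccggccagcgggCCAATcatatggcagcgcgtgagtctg
Sc5d chr9:42264301-42264450 (-): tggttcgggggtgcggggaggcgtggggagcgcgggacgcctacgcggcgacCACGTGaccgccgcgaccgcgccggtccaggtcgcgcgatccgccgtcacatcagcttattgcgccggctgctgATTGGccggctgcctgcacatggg
Insig2 chr1:121332590-121332739 (-): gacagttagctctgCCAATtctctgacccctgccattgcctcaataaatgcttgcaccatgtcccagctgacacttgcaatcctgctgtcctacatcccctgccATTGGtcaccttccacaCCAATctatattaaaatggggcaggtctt

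Per kilobase of exon, the levels spanned a wide range. In Rosa26 at 3 weeks Lcat, the plasma enzyme that esterifies cholesterol on lipoproteins, was highest at 469 ± 55.6 RPKM (SD, n = 5), in counts over merged exon length, ahead of Ebp at 155 ± 15.7, Sc5d at 140 ± 23.3, Insig1 at 132 ± 27.9 and Hmgcs1 at 112 ± 29.0 RPKM. Ebp, Sc5d, Insig1 and Hmgcs1 lay within their SDs of their neighbours in that order. The lowest were Abca1 at 9.10 ± 0.928, Lss at 7.88 ± 2.13 and Mylip at 3.40 ± 0.613 RPKM. The order differed in the deposited FPKM. There, Lcat was again first at 415 ± 39.6, but Fdps came second at 292 ± 86.8 FPKM, where its RPKM was 42.3 ± 12.2, and Lss was at 16.6 ± 6.18 FPKM. Fdps shares 1124 exon bases with another gene model on its strand, which had 0 counts. What made the scales differ was not tested. No library had fewer than 135 counts of any of the 32 genes, so counting error was small beside the spread between mice. The exons of Fdft1 share 774 bases with Ctsb on the opposite strand, and Ctsb had 486% of its counts. Those of Npc1 share 511 bases with Rmc1, and those of Abcg5 and Abcg8 share 82 bases with each other, again on opposite strands. Because the use of strand in counting was not stated, these levels are uncertain.

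The strongest pattern among the 32 genes was between mice of the same group. With group means removed, each synthesis enzyme was correlated over the 20 libraries with the mean of the other enzymes, and the median Pearson r was 0.908. It reached 0.8 or more in 13 of the 18 enzymes, while 32 of 12902 genes with at least 1 CPM (0.248%) did so against the mean of all 18. Within a library all genes come from the same mouse, dissection and library preparation, so r describes these libraries and carries no test. The highest were Lss, lanosterol synthase, at 0.968 (Spearman's rho 0.959), Msmo1, a sterol C4 demethylase, at 0.965 (0.920) and Fdft1, squalene synthase, at 0.962 (0.952). The lowest were Ebp, the sterol isomerase, at 0.649 (0.692) and Tm7sf2, a sterol C14 reductase, at 0.685 (0.641).

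Libraries 4 and 1 of the HIRA 6-month group lay farthest from their group, at 0.787 and -0.577 in mean log2 CPM of the enzymes. Without both, r was 0.957 for Lss, 0.937 for Msmo1 and 0.936 for Fdft1, but 0.504 for Ebp and 0.563 for Sc5d. The enzymes also differed more within a group than other genes did: the median within-group SD was 0.419 in log2 CPM for the enzymes, 0.218 for the other 14 genes of the set and 0.204 over all genes with at least 1 CPM. Mvd, mevalonate diphosphate decarboxylase, spread most at 0.656, followed by Idi1 at 0.566 and Sqle at 0.549, while Ebp at 0.168 was the steadiest enzyme.

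**Figure D1:**
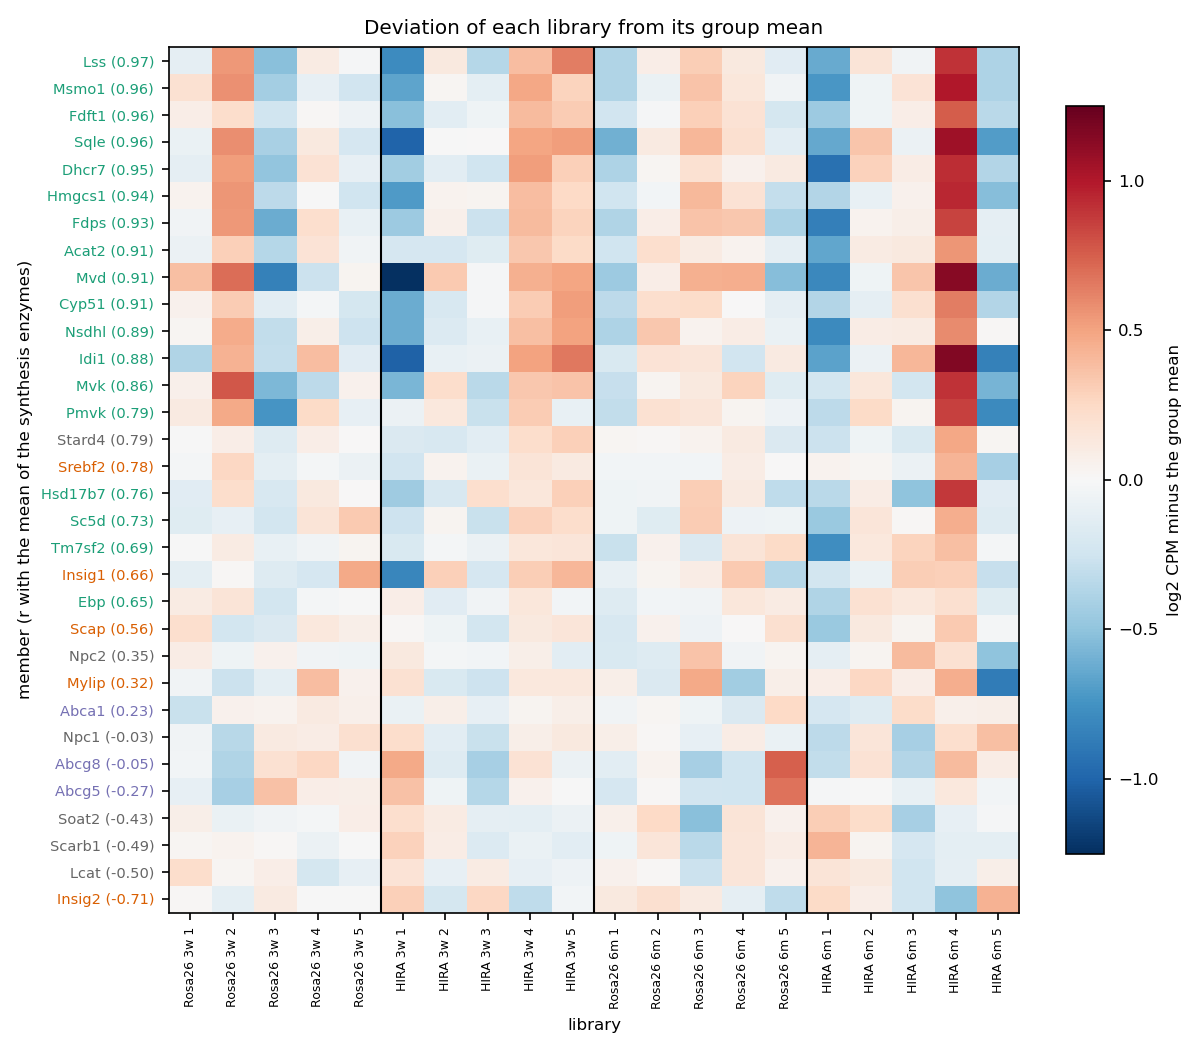
Deviation of each library (columns, 20) from its group mean in log2 CPM for the 32 genes (rows, ordered by r with the mean of the synthesis enzymes, printed in brackets). Label colours give the role: green for synthesis, orange for sterol sensing, purple for export and grey for uptake, esterification and transport. The enzymes at the top change colour together, library 4 of HIRA at 6 months being the reddest, and Insig2 at the bottom runs opposite.

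Outside the enzymes, r ranged widely within each role. Stard4, a carrier of cholesterol between membranes, had r of 0.790 with the enzymes, Srebf2 0.781, Insig1 0.664 and Scap 0.555, the last falling to 0.231 without the 2 farthest libraries. Insig2 had -0.713 (rho -0.674), which was -0.567 without the 2 farthest libraries and -0.279 when group means were kept. The pair Insig1 and Insig2 had r of -0.569 with each other. The exporters Abcg5 and Abcg8, which form 1 transporter that moves sterols into bile, followed each other at r of 0.879. With the enzymes they had -0.265 and -0.048, and -0.464 and -0.419 without the 2 farthest libraries. Abca1, which loads cholesterol onto nascent high-density lipoprotein, had 0.225. Lcat (-0.498), Scarb1, the receptor for high-density lipoprotein (-0.493), and Soat2, which esterifies cholesterol inside the cell (-0.428), were on the negative side, and Npc1 and Npc2, the exit route of cholesterol from lysosomes, had -0.030 and 0.347 (without the 2 farthest libraries -0.419 and 0.232). Mylip, a ubiquitin ligase that removes lipoprotein receptors, had 0.315.

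Beyond the set, the 10 genes most like the mean of the enzymes, out of those with at least 1 CPM, had r of 0.841 to 0.921 over the 20 libraries. Rdh11, a retinol dehydrogenase, was first at 0.921 (rho 0.922). Pnpla5, a lipase of the patatin family, had 0.864, Pstpip2 0.861, Cenpm 0.859, Nfe2 0.848, Acss2, a cytosolic acetyl-CoA synthetase, 0.842 and Hmgn2 0.841. The mean of 10 fatty acid synthesis genes, Acss2 among them, had r of 0.757 with the enzymes and 0.629 without the 2 farthest libraries. The mean of 9 fasting response genes had -0.513 and -0.598. The clock difference had 0.510, and 0.169 without those 2 libraries. The mean of the 7 hepatocyte markers had -0.448, and -0.619 without them. The part of these lists in the spread of the enzymes was not tested.

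The mean of the enzymes was 0.025 ± 0.286 (SD, n = 5) in Rosa26 at 3 weeks, -0.212 ± 0.368 in HIRA at 3 weeks, 0.287 ± 0.207 in Rosa26 at 6 months and -0.100 ± 0.524 in HIRA at 6 months, in centred log2 CPM. The highest group mean was that of the Rosa26 livers at 6 months, and the widest spread was in HIRA at 6 months, where libraries ran from -0.677 to 0.687. All 4 groups overlapped. Single libraries moved these means. The HIRA mean at 6 months was 0.044 without library 1 and -0.297 without library 4. The HIRA-minus-Rosa26 difference was -0.387 at 6 months, -0.243 without library 1 of HIRA and -0.584 without library 4. At 3 weeks it was -0.236, -0.101 without library 1 of HIRA (whose group mean was then -0.076) and -0.134 without library 2 of Rosa26.

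**Figure D2:**
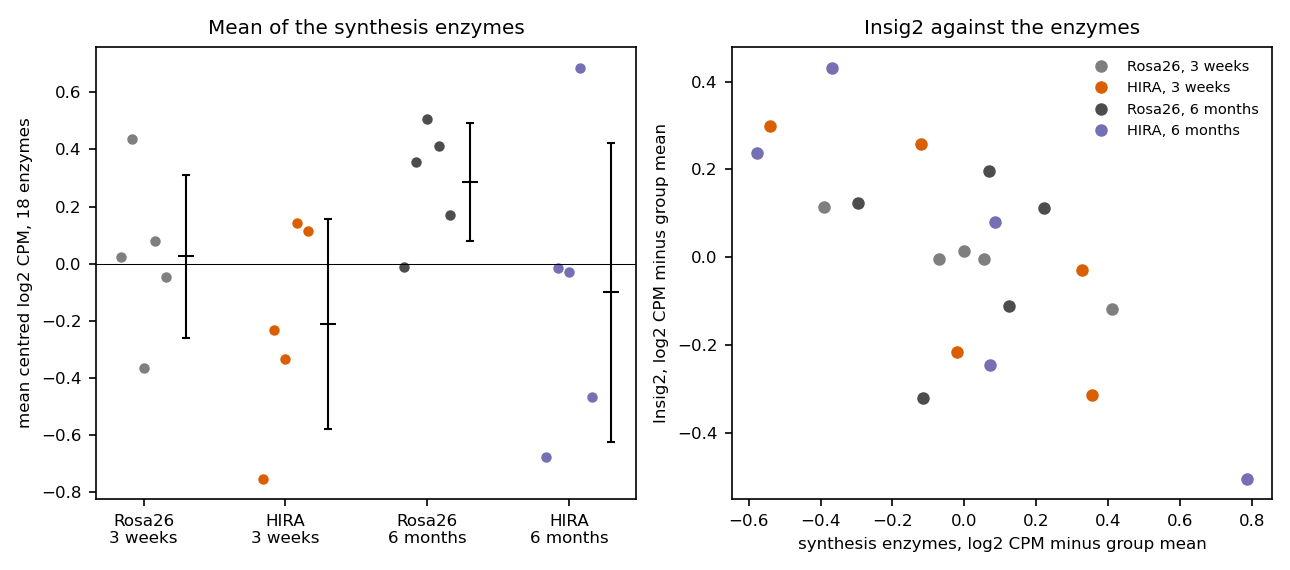
Left, the mean of the 18 synthesis enzymes in centred log2 CPM per library, with the group mean and SD as bars (n = 5 per group). Right, Insig2 against the mean of the enzymes, each in log2 CPM minus the group mean. The 4 groups overlap on the left, and the points on the right fall from upper left to lower right (r = -0.713).

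Between guides at 3 weeks, none of the 32 genes passed the study's thresholds (adjusted p under 0.05 and an absolute log2 fold change over 1, edgeR's quasi-likelihood test), which 0.114% of all genes passed, and none passed adjusted p alone (0.197%). At an unadjusted p under 0.05, 1 gene was lower (4.5% of all genes) and 2 were higher (4.37%). Leaving out 1 library gave 1 to 4 lower and 0 to 3 higher. DESeq2 called Insig2 at adjusted p under 0.05, against 0.984% of all genes, and 4 genes at an unadjusted p, against 7.87%. The enzymes leaned to lower levels: 16 of 18 had a log2 fold change below 0, with a median of -0.26 against -0.01 over all genes, and 15 of 18 did so after upper quartile scaling. Since the enzymes move together between mice, these 18 directions are not 18 separate observations. Beside them, 8 of 9 fasting response genes were below 0, with a median of -0.51. At an unadjusted p under 0.05, 2 of these 9 were lower and 1 was higher. The evening-phase clock genes had a median of 1.43. Of 7 hepatocyte markers 2 were lower at an unadjusted p under 0.05 (median -0.12, 4 below 0). All 7 stellate (0.07), 5 endothelial (0.13) and 6 lymphocyte markers (0.29, 1 higher at that p) were above 0, as were 6 of 8 Kupffer and macrophage (0.06) and 3 of 5 cholangiocyte markers (0.004). Their part in the result was not tested.

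Insig2 gave the smallest p. It measured 190, 173, 203, 187 and 187 CPM in the Rosa26 libraries and 146, 102, 142, 95.4 and 116 CPM in the HIRA libraries at 3 weeks. Every HIRA library lay below every Rosa26 library, and edgeR gave a log2 fold change of -0.65 ± 0.15 (SE, adjusted p = 0.0835). The adjusted p was under 0.05 in 5 of 31 alternatives and ran from 0.00956 in DESeq2 to 0.248 without library 4 of HIRA at 3 weeks. It was 0.0191 with the libraries of both 3-week groups alone and 0.159 on log2(FPKM + 1). It was 0.0493 without library 4 and 0.0414 without library 5 of HIRA at 6 months, which enter the shared estimate of spread. Averaged over both times the log2 fold change of Insig2 was -0.35 ± 0.11 (adjusted p = 0.0849).

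The 2 genes on the higher side both handle cholesterol between membranes. Npc1 measured 102, 82.8, 114, 112 and 121 CPM under Rosa26 and 152, 119, 108, 138 and 142 CPM under HIRA, overlapping groups with a log2 fold change of 0.31 ± 0.14 (adjusted p = 0.505). Stard4 measured 84.8, 89.7, 76.1, 89.7 and 85.0 CPM under Rosa26 and 89.5, 88.2, 92.7, 118 and 124 CPM under HIRA (0.27 ± 0.12, adjusted p = 0.535). Its groups overlapped in their upper and lower ends. At 3 weeks 2 genes of the set did not overlap on the lower side (1.24% of all genes), Insig2 and Tm7sf2, and 1 on the higher side (1.45%), Soat2, with 78.8 to 87.9 CPM under Rosa26 and 90.7 to 114 CPM under HIRA (log2 fold change 0.26 ± 0.13, adjusted p = 0.603). Soat2 is named here after its values were seen.

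At 6 months again no gene of the set passed both thresholds (0.332% of all genes) or adjusted p under 0.05 (1.31%). At an unadjusted p under 0.05, 6 genes were lower (6.85% of all genes), namely Tm7sf2, Insig1, Ebp, Stard4, Sc5d and Mvd, and 1 was higher (8.68%), namely Mylip. DESeq2 called Tm7sf2 and Insig1 at adjusted p under 0.05, against 3.91% of all genes, and 8 genes at an unadjusted p, against 14.3%. The log2 fold change was below 0 for 16 of the 18 enzymes, with a median of -0.31 against 0.03 over all genes, and for 18 of 18 after RLE or upper quartile scaling. Among markers of other liver cells, all 7 stellate markers (median 0.48, 2 higher at an unadjusted p under 0.05), all 5 endothelial markers (0.32, 2 higher) and all 6 lymphocyte markers (0.39, none) were above 0, as were 4 of 5 cholangiocyte markers (0.22, none). Of 8 Kupffer and macrophage markers, 6 were below 0 (median -0.13, none at that p). Of 7 hepatocyte markers 6 were above 0 (0.17, 1 higher), and of 9 fasting response genes 7 were (0.19, 2 higher). Evening-phase clock genes had a median of 0.09 (1 of 9 higher at that p) and morning-phase genes -0.13 (none of 5). Their part in the result was not tested. The number on the lower side rested on the method and on single libraries. It was 12 with the replicate number as a block and 10 with limma-voom, where the share of all genes was not taken. Without library 4 of the HIRA group, the one highest in the enzymes, 16 genes were lower (6.71% of all genes), without library 1 there were 2 (6.31%), and without library 5 there were 3 (7.77%). Those 16 included Mvd at -1.16 ± 0.34 (adjusted p = 0.0826) and Fdps at -0.78 ± 0.24 (adjusted p = 0.0956). In evening minus morning clock genes, library 4 was the highest of the HIRA group at 2.55 and library 1 the lowest at -1.67. The part of the clock in these counts was not tested.

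Tm7sf2 measured 193, 243, 207, 263 and 277 CPM in the Rosa26 libraries and 89.4, 168, 186, 199 and 151 CPM in the HIRA libraries at 6 months. Library 1 of HIRA was the lowest and library 4 alone reached into the Rosa26 range, and the log2 fold change was -0.58 ± 0.15 (adjusted p = 0.0617). The adjusted p was under 0.05 in 4 of 31 alternatives and ran from 0.00964 in DESeq2 to 0.246 with the libraries of both 6-month groups alone. It was 0.0358 with the replicate number as a block, 0.0333 without library 4 of HIRA and 0.169 without library 4 of Rosa26. Tm7sf2 lies at chr19:6062821-6068373 on the minus strand and shares 532 exon bases with Vps51 on the same strand, which had 10.6% as many counts.

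Insig1 and Mylip pointed in opposite directions at 6 months. Insig1 measured 585, 639, 666, 784 and 489 CPM under Rosa26 and 334, 371, 485, 483 and 321 CPM under HIRA. The groups did not overlap, as in 1.74% of all genes on the lower side, although 489 and 485 CPM nearly met, and the log2 fold change was -0.67 ± 0.20 (adjusted p = 0.0975). The adjusted p was under 0.05 in 2 of 31 alternatives, 0.0234 in DESeq2 and 0.0486 without library 1 of HIRA at 3 weeks, and reached 0.255 without library 4 of Rosa26 at 6 months. No gene of the set was without overlap on the higher side, against 1.41% of all genes. Mylip measured 9.05, 7.55, 11.9, 6.30 and 8.99 CPM under Rosa26 and 13.4, 15.1, 13.4, 17.3 and 6.86 CPM under HIRA. In HIRA, 4 of 5 libraries lay above all Rosa26 libraries, and library 5 lay among the Rosa26 values. Library 5 is the one with Y-linked counts and with the lowest marker sums of its group for cells other than hepatocytes. The log2 fold change of Mylip was 0.59 ± 0.20 (adjusted p = 0.14), and 0.75 without library 5 (adjusted p = 0.0204). Over 31 alternatives the adjusted p ran from that value to 0.331 and was under 0.05 in 2, both without library 5. At 3 weeks Mylip measured 10.5, 8.98, 9.94, 14.2 and 11.3 CPM under Rosa26 and 14.0, 10.7, 10.2, 13.4 and 13.4 CPM under HIRA, overlapping throughout, and the averaged log2 fold change was 0.38 ± 0.14 (adjusted p = 0.152).

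Ebp, Stard4 and Sc5d followed with smaller differences, in Sc5d a log2 fold change of -0.39 ± 0.16 (adjusted p = 0.231). Ebp measured 383, 416, 414, 470 and 457 CPM under Rosa26 and 271, 399, 386, 404 and 315 CPM under HIRA (log2 fold change -0.27 ± 0.11, adjusted p = 0.225). Stard4 measured 110, 109, 111, 117 and 95.1 CPM under Rosa26 and 71.5, 82.7, 75.5, 120 and 87.6 CPM under HIRA (-0.31 ± 0.12, adjusted p = 0.228). Over 31 alternatives the adjusted p ran from 0.0359 without library 4 of HIRA, the 1 value under 0.05, to 0.415. In Stard4 that library was the one above the Rosa26 group, and the other 4 lay below it. Mvd had the lowest log2 fold change of the set, -0.77 ± 0.36, with an adjusted p of 0.299 and HIRA libraries from 19.7 to 76.2 CPM.

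**Figure D3:**
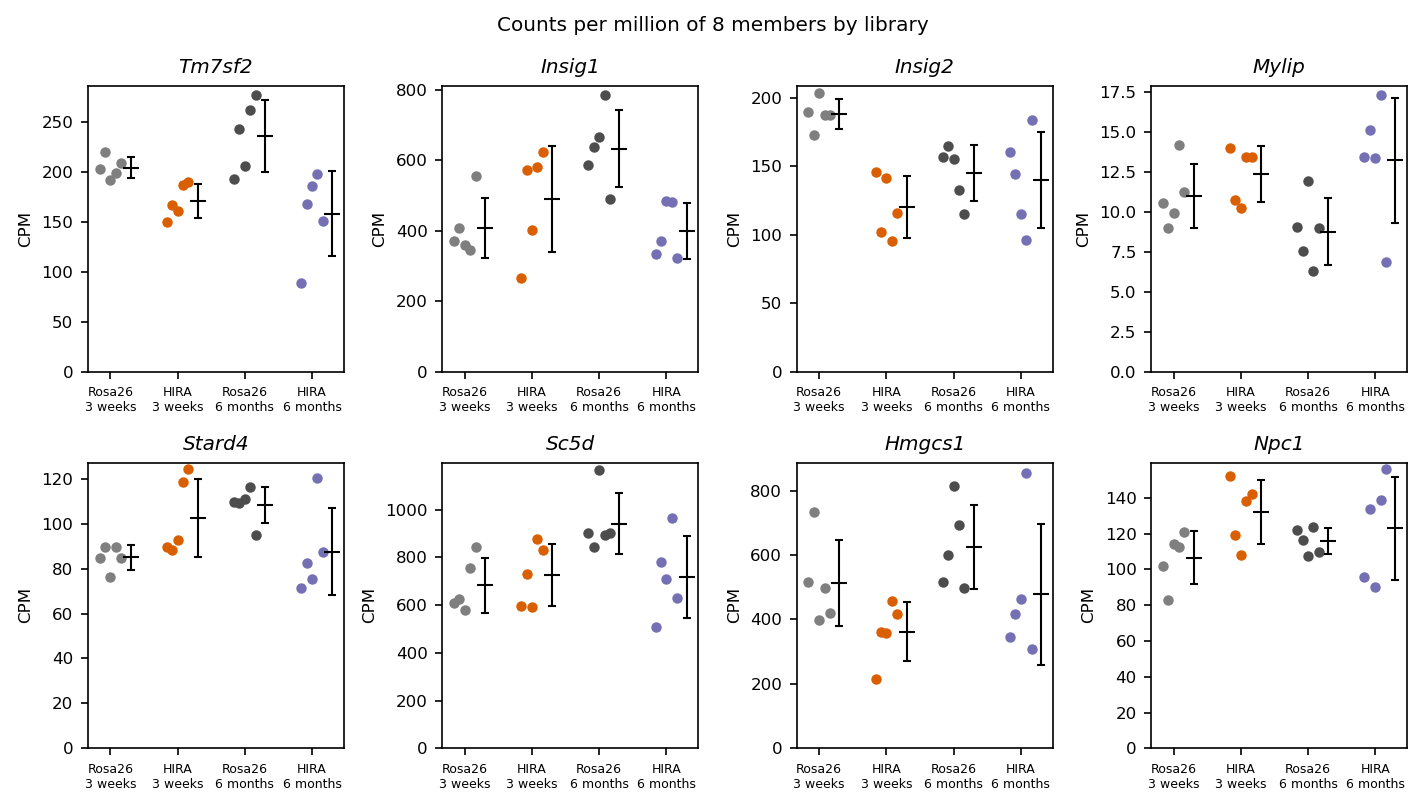
CPM (vertical axes, from 0) of 8 genes in the 20 libraries, 5 points per group, with the group mean and SD beside them. Insig2 is lower in every HIRA library at 3 weeks, Insig1 in every HIRA library at 6 months, and in Mylip 1 HIRA library at 6 months, at 6.86 CPM, lies apart from the other 4.

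Averaged over both times, the guide effect reached adjusted p under 0.05 in 1 of the 32 genes, Tm7sf2, against 2.85% of all genes, and no gene passed both thresholds (0.468%). Tm7sf2 fell by 0.42 ± 0.11 on the log2 scale, a fold of 0.749 (adjusted p = 0.038). At 3 weeks it had measured 203, 220, 192, 199 and 209 CPM under Rosa26 and 150, 167, 162, 188 and 190 CPM under HIRA, and there the groups did not overlap. Its adjusted p lay between 0.0542 and 0.0799 when any of 9 single libraries was left out, namely 1, 2 or 5 of Rosa26 and 1, 2 or 3 of HIRA at 3 weeks and 2, 4 or 5 of Rosa26 at 6 months. It was 0.0523 on log2(FPKM + 1).

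At an unadjusted p under 0.05, 6 genes were lower on average (7.94% of all genes) and 2 higher (8.62%). The lower ones were Tm7sf2, Insig2, Fdps, Hmgcs1, Mvd and Acat2, and the higher ones Mylip and Soat2. All 18 enzymes had an averaged log2 fold change below 0, with a median of -0.23, from -0.58 for Mvd to -0.07 for Idi1, and the median over all genes was 0.02. Beside them, evening-phase clock genes had a median of 0.78 (7 of 9 higher at an unadjusted p under 0.05, 4 at adjusted p) and morning-phase genes -0.58 (3 of 5 lower). The evening-phase median was 1.43 at 3 weeks and 0.09 at 6 months. All stellate (median 0.28), endothelial (0.23) and lymphocyte markers (0.26) were above 0, and 5 of 8 Kupffer and macrophage markers were below 0 (-0.09). Their part in the result was not tested. Without library 4 of HIRA at 6 months, 16 genes of the set were lower (7.93% of all genes), and Fdps and Hmgcs1 joined Tm7sf2 at adjusted p under 0.05. Without library 1 or library 5 of that group 4 genes were lower, in a background of 8.19% and 9.2%. Without library 5, Insig2 (adjusted p = 0.0261) and Mylip (adjusted p = 0.0211) joined Tm7sf2. In that setting 890 of 22703 genes had an adjusted p under 0.05, against 651 of 22867 in the main fit.

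Hmgcs1 makes HMG-CoA, the precursor of mevalonate. It measured 516, 735, 398, 498 and 420 CPM in Rosa26 and 214, 362, 359, 456 and 415 CPM in HIRA at 3 weeks, and 515, 601, 813, 694 and 498 CPM in Rosa26 and 344, 417, 463, 855 and 307 CPM in HIRA at 6 months. Library 4 of HIRA at 6 months was the highest of all 20 and the other HIRA libraries of that time lay below their controls, with an averaged log2 fold change of -0.45 ± 0.17 (adjusted p = 0.185). Fdps, which makes farnesyl diphosphate, measured 167, 251, 112, 198 and 162 CPM in Rosa26 and 93.5, 134, 106, 169 and 156 CPM in HIRA at 3 weeks. At 6 months it measured 149, 205, 247, 244 and 147 CPM in Rosa26 and 72.0, 134, 136, 234 and 120 CPM in HIRA (averaged log2 fold change -0.47 ± 0.18, adjusted p = 0.173). Its groups overlapped at both times.

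The remaining enzymes lay mostly below 0 and none had an unadjusted p under 0.05 between guides at either time. In the mevalonate steps the log2 fold change of Mvk, mevalonate kinase, was -0.35 ± 0.26 at 3 weeks and -0.24 ± 0.26 at 6 months, and that of Pmvk, which adds the next phosphate, was -0.26 ± 0.23 and -0.36 ± 0.23. Idi1, the isopentenyl diphosphate isomerase, had -0.15 ± 0.32 and 0.01 ± 0.31. Around squalene, Fdft1 had -0.04 ± 0.20 and -0.28 ± 0.20, Sqle, squalene epoxidase, -0.21 ± 0.31 and -0.18 ± 0.30, and Lss 0.08 ± 0.27 and -0.35 ± 0.27. After lanosterol, Cyp51, the C14 demethylase, had -0.29 ± 0.20 and -0.12 ± 0.20, Msmo1 -0.26 ± 0.26 and -0.26 ± 0.26, Nsdhl, a sterol dehydrogenase, -0.24 ± 0.22 and -0.17 ± 0.22, and Dhcr7, which makes cholesterol from its 7-dehydro form, -0.31 ± 0.26 and -0.42 ± 0.26. Each of these values lay within 2 SE of 0, so neither a change nor its absence was shown. Single libraries moved them at 6 months. Without library 4 of HIRA, Pmvk had -0.62 ± 0.21 and Dhcr7 -0.71 ± 0.23, beyond 2 SE. Without library 1 of HIRA they had -0.27 ± 0.24 and -0.25 ± 0.24.

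**Figure D4:**
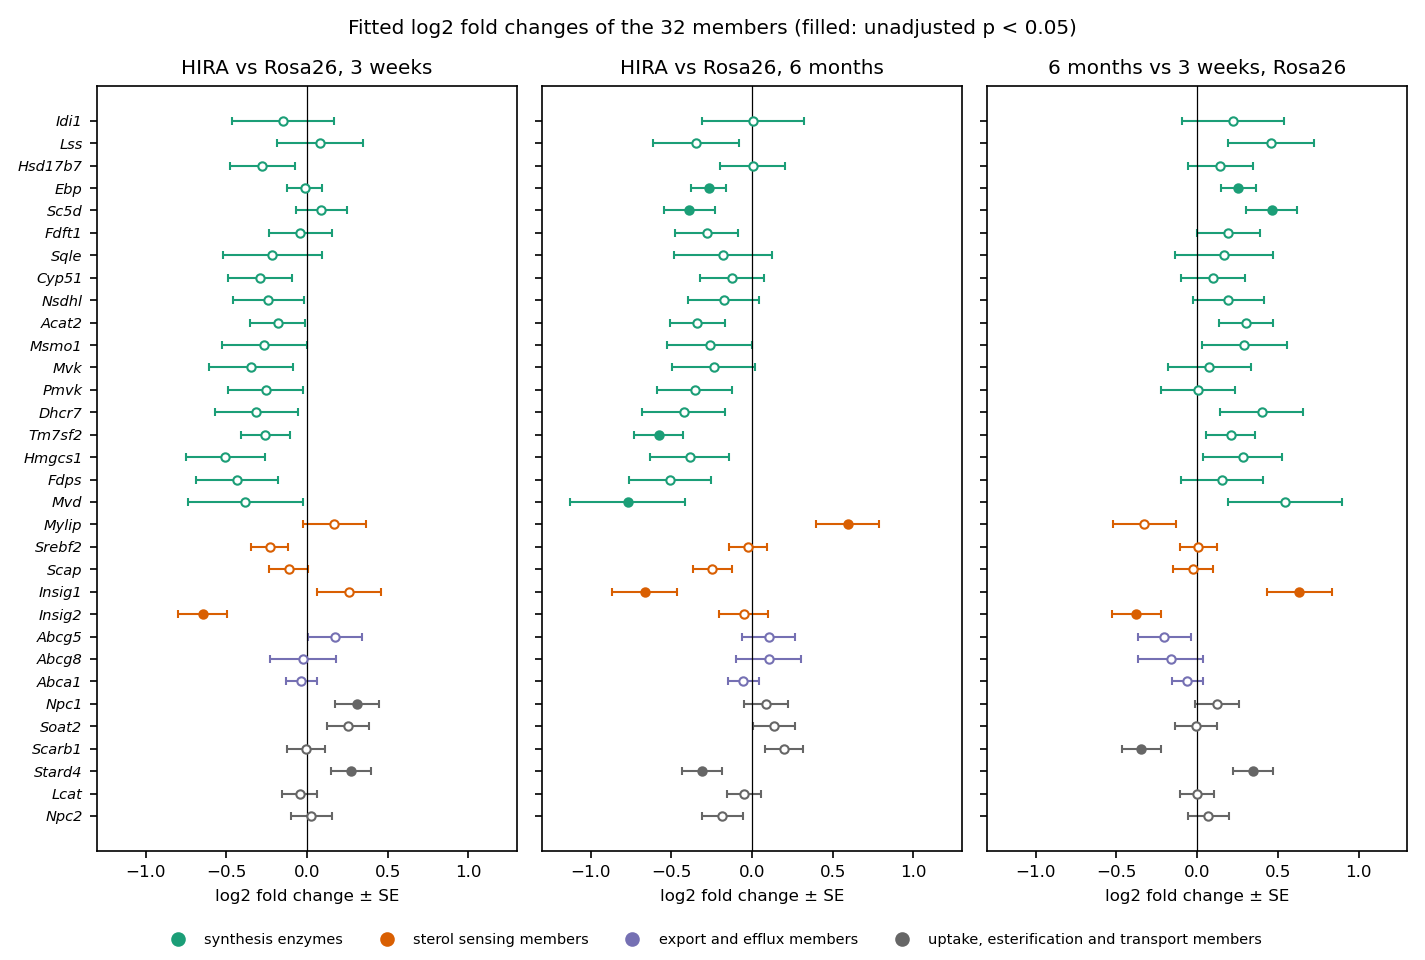
Log2 fold change (horizontal axes) with its SE for each of the 32 genes, for HIRA against Rosa26 at 3 weeks and at 6 months and for 6 months against 3 weeks in Rosa26, coloured by role. Filled points have an unadjusted p under 0.05. The enzymes lie mostly left of 0 in the guide comparisons and right of 0 in the time comparison, which shares the Rosa26 libraries with them.

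Between 3 weeks and 6 months in the Rosa26 mice, no gene of the set passed both thresholds (0.162% of all genes) or adjusted p under 0.05 (0.324%). At an unadjusted p under 0.05, 4 genes were higher at 6 months, Insig1, Sc5d, Stard4 and Ebp (6.38% of all genes), and 2 were lower, Scarb1 and Insig2 (also 6.38%). DESeq2 found the same 6 (11.5% of all genes) and none at adjusted p under 0.05 (2.21%). None of the 18 enzymes had a log2 fold change below 0, with a median of 0.22 against 0.00 over all genes. These comparisons use the same Rosa26 libraries as those between guides, so a low or high Rosa26 group enters both. Beside them, evening-phase clock genes had a median log2 fold change of 1.35 and fasting response genes -1.15. All 5 endothelial markers were below 0 (median -0.36, 2 lower at an unadjusted p under 0.05), as were 6 of 7 hepatocyte markers (-0.21, 1 lower) and all 5 cholangiocyte markers (-0.11, none). All 6 lymphocyte markers (0.71, 1 higher) and 7 of 8 Kupffer and macrophage markers (0.33, none higher and 1 lower) were above 0. Their part in the result was not tested.

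Insig1 measured 370, 407, 359, 346 and 557 CPM in Rosa26 at 3 weeks, against 489 to 784 CPM at 6 months, with a log2 fold change of 0.63 ± 0.20 (adjusted p = 0.158). Library 5 was the highest at 3 weeks and the lowest at 6 months, and those values alone overlapped. Sc5d, the desaturase near the end of the pathway, measured 607, 628, 578, 756 and 845 CPM at 3 weeks and 901, 844, 1165, 895 and 901 CPM at 6 months (0.46 ± 0.16, adjusted p = 0.198). Its groups met at 845 and 844 CPM. Stard4 was higher in every library at 6 months than in any at 3 weeks (0.35 ± 0.12, adjusted p = 0.217), the 1 gene of the set without overlap on that side (1.69% of all genes).

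On the lower side, Scarb1 and Insig2 did not overlap between the times (1.81% of all genes). Scarb1 measured 239, 243, 237, 223 and 235 CPM at 3 weeks and 177, 204, 146, 204 and 196 CPM at 6 months (log2 fold change -0.34 ± 0.12, adjusted p = 0.201). Insig2 measured 157, 165, 155, 133 and 115 CPM at 6 months (-0.38 ± 0.15, adjusted p = 0.284).

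In the HIRA mice no gene of the set passed both thresholds between the times (0.0569% of all genes) or adjusted p under 0.05 (0.0656%). At an unadjusted p under 0.05 none was lower (3.36%) and 1 was higher (5.58%). This was Hsd17b7, a keto-reductase of sterol demethylation, with 31.5, 37.1, 49.6, 47.1 and 52.5 CPM at 3 weeks and 43.6, 58.8, 38.8, 101 and 49.9 CPM at 6 months (log2 fold change 0.43 ± 0.20, adjusted p = 0.553). Library 4 alone lay far above the 3-week range, the log2 fold change was 0.13 without it (adjusted p = 0.874), and DESeq2 gave no gene of the set even at an unadjusted p (7.82% of all genes).

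The difference of the guide effects between the times was tested directly. No gene of all 22867 had an adjusted p under 0.05 (0%) in edgeR, and 3 genes of the set at the lower side (2.95% of all genes) and 1 at the higher side (3.67%) had an unadjusted p under 0.05, the same 4 as in DESeq2 (5.4% of all genes). In edgeR Insig1 had a difference of -0.93 ± 0.28 on the log2 scale (adjusted p = 0.614), Stard4 -0.58 ± 0.18 (adjusted p = 0.614) and Sc5d -0.48 ± 0.22 (adjusted p = 0.746). In the same edgeR fit Insig2 had 0.60 ± 0.21 (adjusted p = 0.685). For Insig1 the HIRA libraries measured 265, 574, 403, 580 and 624 CPM at 3 weeks, from below to above their controls, and lay below them at 6 months. For Sc5d the HIRA libraries measured 598, 732, 592, 877 and 832 CPM at 3 weeks and 510, 780, 709, 965 and 628 CPM at 6 months, and at 6 months 4 of 5 lay below every control. For Insig2 the HIRA libraries measured 161, 144, 115, 96.1 and 184 CPM at 6 months, across the range of their controls.

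Abcg5 had a log2 fold change of 0.17 ± 0.17 at 3 weeks and 0.10 ± 0.17 at 6 months between guides, Abcg8 -0.02 ± 0.20 and 0.10 ± 0.20, and Abca1 -0.04 ± 0.10 and -0.06 ± 0.10. Abca1 measured 74.6 to 107 CPM over the 20 libraries and was the steadiest of the set within groups, with an SD of 0.150 in log2 CPM. Lcat had -0.05 ± 0.11 at both times, with 509 to 730 CPM over the 20 libraries. Npc2 had 0.03 ± 0.13 and -0.18 ± 0.13, Srebf2 -0.23 ± 0.12 and -0.03 ± 0.12, and Scap -0.11 ± 0.12 and -0.25 ± 0.12. None of these had an unadjusted p under 0.05 in either comparison. The SEs of 0.10 to 0.20 set the size of a difference that could be seen.

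Of 45 further sterol pathway genes tested (bile acid synthesis, oxysterol handling, lipoprotein uptake and esterases among them), none had an adjusted p under 0.05 between guides at either time. At an unadjusted p under 0.05, 1 was lower and 3 were higher at 3 weeks, and 1 lower and 2 higher at 6 months. These were 8.89% and 6.67% of the list, against 8.87% and 15.5% of all genes. Vldlr, a lipoprotein receptor, had a log2 fold change of 0.80 ± 0.31 at 3 weeks (adjusted p = 0.419) and Hsd3b7, of bile acid synthesis, -0.49 ± 0.21 (adjusted p = 0.49). Erlin1, a membrane protein of sterol-dependent degradation, had 0.30 ± 0.13 (adjusted p = 0.5) and the carboxylesterase Ces1f 0.39 ± 0.17 (adjusted p = 0.503). At 6 months Ggps1, which makes geranylgeranyl diphosphate, had 0.23 ± 0.09 (adjusted p = 0.183), Npc1l1, the sterol uptake protein, 2.23 ± 0.90 (adjusted p = 0.242), and Gramd1c, a membrane sterol carrier, -0.19 ± 0.09 (adjusted p = 0.29). Next by p was Gramd1a, whose unadjusted p of 0.0562 in edgeR, at 0.22 ± 0.11, did not pass 0.05 (adjusted p = 0.336). The median log2 fold change of the 45 genes was 0.01 at 3 weeks and 0.02 at 6 months. Genes of fatty acid synthesis had a median of 0.34 at 3 weeks, where none of 10 was below 0, and of -0.19 at 6 months.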

How the data were processed

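Bulk liver RNA-seq of 20 mice was read from the deposited raw counts per gene. Per the paper's methods and the submitters' processing notes, the authors aligned reads to mm10 with STAR. The methods name HOMER for counting and the notes HTSeq, while strand handling is not given in the sources used here. FPKM values were deposited too (the notes name Cufflinks). These are blank for Mvd and were used only as an alternative. Genes with fewer than 10 counts in total were left out. The 4 group means were fitted to all 20 libraries with edgeR 4.0.16 (TMM, quasi-likelihood test, two-sided) in R 4.3.3, with Benjamini-Hochberg adjustment over 22867 genes within each of 6 contrasts. Alternatives used DESeq2 1.42.0, limma 3.58.1 (voom, or log2(FPKM + 1) and log2(FPKM + 0.1)), other scalings and filters, and each library left out. The fit was tested on simulated data. CPM uses TMM library sizes, log2 CPM a prior count of 2, and RPKM the merged GENCODE M21 exons. The SE of a fold change comes from its F statistic. The labels do not say what the replicate numbers share, so p-values measure the spread between these libraries.

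The genes and lists were chosen with earlier results of these data known. Values per library are given for genes with adjusted p under 0.05 in any contrast and for up to 5 of smallest p among those with p under 0.05 in each contrast. Some genes that the rules would name are not reported here.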

Additional observations from a re-analysis of the deposited data

Results flagged for a closer look

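In 128 groups of 5 libraries (32 genes, 4 groups), 7 held a library whose gap to its nearest neighbour exceeded Dixon's 95% limit of 0.71 of the range. Chance alone flags about 1 in 20 groups, or 6.4 here. In Rosa26 at 6 months these were library 3 for Sc5d (log2 CPM 10.19) and Soat2 (5.83), library 1 for Dhcr7 (7.34) and library 5 for Abcg5 (7.01). In Rosa26 at 3 weeks they were library 2 for Srebf2 (6.97) and library 1 for Abca1 (6.28). In HIRA at 6 months it was library 5 for Mylip (2.80), the library with Y-linked counts and the lowest marker sums of its group outside hepatocytes. Abcg8 was also highest in library 5 of Rosa26 at 6 months, at 157 CPM, as was Abcg5 at 128 CPM.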

How the results depend on the processing

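No gene of the set passed both thresholds in any of the 6 contrasts under any alternative run (0 throughout). The count at adjusted p under 0.05 moved as follows. At 3 weeks it was 0, and 1 with DESeq2, with the libraries of the contrast alone, and with the replicate block and without library 5 of HIRA at 6 months together (chosen after seeing the data). Leaving out 1 library gave 0 to 1. At 6 months it was 0, and 1 with at least 1 CPM in 5 libraries, 1 with the replicate block, 2 with DESeq2 and 1 with the block and without library 5. Leaving out 1 library gave 0 to 2. For the averaged guide effect it was 1, and 2 with DESeq2, 0 with both FPKM pseudocounts and 3 with the block and without library 5. Leaving out 1 library gave 0 to 3. It stayed 0 in the other 3 contrasts. Of all genes the main fit called 45 at 3 weeks and 299 at 6 months at that threshold. DESeq2 called 225 and 895, and the replicate block 54 and 324.

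For 27 values of genes named by the rule on smallest p, 826 of 827 alternatives kept the sign. The exception among these was Tm7sf2 between times in HIRA, 0.04 without library 1 of HIRA at 6 months against -0.11. Other printed values did change sign. Without library 4 of HIRA at 6 months, Idi1 at that time went from 0.01 to -0.39 and Insig2 from -0.05 to 0.06. Counts at an unadjusted p under 0.05 moved more. For most of these settings the share of all genes was not taken, so the counts have no background beside them. At 3 weeks the 1 lower gene became 2 with no filter, DESeq2 or limma-voom, 4 with the replicate block and 5 with the libraries of the contrast alone. It became 4 without library 3 of Rosa26 at 3 weeks, 3 without library 4 or 5 of HIRA at either time, and 2 without library 5 of Rosa26 at 3 weeks, 3 of Rosa26 at 6 months or 1 of HIRA at 6 months. The 2 higher genes became 0 without library 1 of Rosa26 or 4 or 5 of HIRA at 3 weeks, and 1 without 2, 3 or 5 of Rosa26. At 6 months the 6 lower genes became 12 with the replicate block and 10 with limma-voom, and the 1 higher became 2 without library 5 of Rosa26 or 3 of HIRA. For the averaged effect the 6 lower became 10 without library 3 of Rosa26 at 3 weeks, and the 2 higher became 1 with limma-voom or without library 2, 3 or 4 of Rosa26 or 1 or 2 of HIRA at 3 weeks, or 1 or 3 of Rosa26 or 2 of HIRA at 6 months. Between times in Rosa26 the 4 higher became 7 with the libraries of the contrast alone. Between times in HIRA the 1 higher was 0 with DESeq2 and most other settings and 3 without library 5 of HIRA at 6 months, and the 0 lower became 2 without library 1 of HIRA at 3 weeks. For the difference between times the 3 lower became 5 without library 4 of HIRA at 6 months, and the 1 higher became 3 without library 5 of that group and 2 without library 3 of Rosa26 at 6 months. The median r of the enzymes was 0.879 to 0.914 under its alternatives. Libraries of the same number had correlations of -0.329 to 0.331 between groups, over 0.1 in 14 of 30 pairs and not in every pair, so the numbers were not taken as a pairing. In 22 of 60 comparisons a library was best with its own number, where 12 would be without any pairing, a lean towards one. The block changed no other call at adjusted p under 0.05. The 5 libraries a group and SEs near 0.1 to 0.36 limit what could be seen. The cause of these changes was not tested.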
